A study of Homo sapiens with 10 samples.

Results

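MDA-MB-435, a human melanoma cell line, was profiled on Illumina Human-8 BeadChips after 1 h and after 6 h of treatment with hepatocyte growth factor (HGF), and the comparison described here sets the 2 arrays of the 6 h cells against the 2 arrays of the 1 h cells, which are 4 of the 10 arrays of the series. The other 6 arrays carried RNA of untreated MDA-MB-435 cells, of cells treated with HGF for 24 h and of cells transduced with integrin Beta4 (ITGB4), 2 arrays each. All cells came from 1 line, were kept under standard growth conditions and were deposited as biological duplicates. The dose of HGF is not given in the sources used here. No genotype separates the 1 h group from the 6 h group, and the labels give no untreated culture matched to each time point, so that time in HGF and time in culture cannot be told apart. The choice was made by the treatment labels and used no measured value. It addresses which transcripts moved between the early and the intermediate time point of the response.

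HGF is the ligand of the receptor tyrosine kinase MET, and binding sends signals through the ERK, PI3K and AKT, and STAT pathways. In epithelial and melanocytic cells the factor is known for triggering scattering, migration, invasion and division. Growth factor responses are usually staged: transcription factor genes that need no new protein come first, and genes for growth, RNA handling and division come later. The MET probe lay close to the detection limit of the arrays, a normalised signal of about 89.6. Its log2 signal was 6.64 and 6.29 at 1 h and 6.81 and 6.75 at 6 h, a difference of 0.32 ± 0.19 (SE of the fit, n = 2 arrays a group) that did not pass the test. The HGF transcript itself was detected on 0 of the 10 arrays. ITGB4 was not detected at 1 h or at 6 h, at log2 signals between 5.92 and 6.00.

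The melanoma label was checked against lineage markers. Of 29 melanocyte lineage genes with a probe, 20 were detected on each of the 4 arrays, among them TYR, TYRP1, MLANA, PMEL, SOX10 and MITF, while KIT, OCA2, SLC45A2, TRPM1, MCAM, CSPG4 and ABCB5 were not detected on any array of the series. The summed signal of the measured lineage genes ran from 35800 to 40600 at 1 h and from 31500 to 33200 at 6 h. In bulk RNA, fewer cells of a type and less RNA per cell cannot be told apart. Of 23 epithelial markers on the array, 5 were detected on each of the 4 arrays (ESRP1, KRT7, KRT14, KRT15 and KRT18), while CDH1 and EPCAM were among those not detected on any array. Of 13 stromal markers, DCN and LUM were detected on each of the 4, and COL1A1 and PDGFRB on none of the series. Of 16 immune markers, CD68 and LYZ were detected on each of the 4, and CD3E, CD14 and MS4A1 on none of the series. The summed signal of the 11 measured epithelial genes ran from 1520 to 1630 at 1 h and from 1690 to 1790 at 6 h, that of the 3 stromal genes from 658 to 785 and from 625 to 729, and that of the 5 immune genes from 615 to 733 and from 606 to 640. The part of other cells in the results was not tested.

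Between 10226 and 11899 probes were detected on each array, 42.4% to 49.4% of those used, with a median of 26 to 32 beads behind each probe. HGF 1 h replicate 1 needs to be set apart before the results are read. It had the lowest raw median signal (74.9, against 77.6 to 96.9 on the other arrays), and on it the lower quartile of the detection score was 0.00814, against 0.249 on HGF 1 h replicate 2. Low quartiles of 0.0175 to 0.0225 were also found on the replicate 1 arrays of the untreated, 6 h and 24 h groups, so that differences taken within replicate 1 and within replicate 2 are also differences within arrays of like score. Raw signal was not alike within replicate 1, since HGF 6 h replicate 1 had the highest raw median of the series (96.9). It also had the highest detection limit (96.48, against 86.57 on HGF 6 h replicate 2) and fewer detected probes than that array (10593 against 11722). With HGF 1 h replicate 1 left out, no probe passed an adjusted p of 0.05 in limma (1417 passed an unadjusted p of 0.05, and the lowest adjusted p was 0.0941). With the array left out and the replicate number as a block, 396 probes passed, and 321 of these were among those called with all arrays. That second fit was not planned and leaves 1 array at 1 h, with the block taken from the other groups. Deviations of the 1 h arrays from their mean correlated at 0.366 with those at 6 h. The values were 0.196 for untreated, 0.0616 for 24 h and -0.0631 for ITGB4. Passing in this fit therefore does not show that a call holds without HGF 1 h replicate 1. The fit is called the blocked test without HGF 1 h replicate 1. Its counts are given for most lists beside those with all arrays. Over genes counted once, by their brightest probe, it called 1.64% higher and 1.67% lower. The replicate block with all arrays called 7.07% of these genes higher and 8.31% lower. Whether the duplicates came from separate cultures beyond the word biological is not given, and the p-values measure the spread between these arrays.

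Expression differed between 6 h and 1 h of HGF for 654 of 14018 probes that were detected on at least 1 array (4.67%, limma, Benjamini-Hochberg adjusted p under 0.05). Of these, 314 were higher and 340 were lower at 6 h, and the share of higher calls was 48%, against 62.7% of 601 calls in the deposited value table. Leaving out the first or the second 6 h array brought the count to 23 or 77, and leaving out either 24 h array brought it to 1037. The 654 probes named 592 genes, 282 higher and 310 lower, and 0 genes had probes called in both directions. The median size of a called difference was 0.854 on the log2 scale, 99 probes were higher by more than 1 and 83 lower by more than 1. An unadjusted p under 0.05 was reached by 2867 probes, where 701 would be reached with no difference at all. The called probes moved the same way within replicate 1 and within replicate 2 in 654 of 654 cases and showed no overlap between the 2 groups, which the test largely requires. The groups did not overlap for 6801 of all 14018 probes. Over all probes, the share with the same sign in both replicates was 67.3%. The within-replicate differences correlated across probes at r = 0.679 (a description over probes, which are not independent replicates), and their SD was 0.444 in replicate 1 and 0.303 in replicate 2. When genes are counted once, by their brightest probe, 2.61% of 10599 genes were called higher and 2.9% lower, and these shares are the background for the gene lists below. An unadjusted p under 0.05 was reached by 23.5% of these genes.

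**Figure D1:**
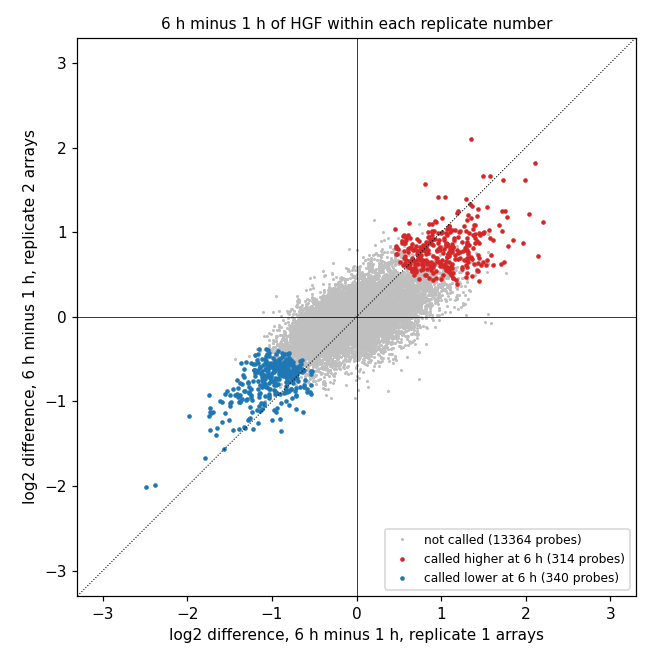
Log2 difference between 6 h and 1 h of HGF for each of 14018 probes, within the replicate 1 arrays (horizontal) and within the replicate 2 arrays (vertical), with the 314 probes called higher in red, the 340 called lower in blue and the others in grey. The called probes lie in the upper right and lower left, and the cloud is wider along the replicate 1 axis (SD 0.444 against 0.303).

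The strongest falls between 1 h and 6 h were in the stress-response genes downstream of ATF4. ATF4 is the transcription factor whose translation is favoured when the initiation factor eIF2 is phosphorylated, as under amino acid shortage or a load of unfolded protein, and it switches on genes for amino acid synthesis and uptake and for redox balance. Of 32 measured genes of the ATF4 and amino acid list, 10 were called lower and 1 higher at 6 h, with a median log2 difference of -0.62 against -0.02 over all genes. The median was -0.59 within replicate 1, -0.57 within replicate 2 and -0.45 with HGF 1 h replicate 1 left out. In the blocked test without that array, 11 were lower and 1 was higher.

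SESN2, which encodes a sestrin that holds back mTORC1 when leucine is scarce, had log2 signals of 9.83 and 8.82 on the 1 h arrays and of 7.33 and 6.80 on the 6 h arrays. The groups did not overlap although the 1 h arrays differed from each other, and the gene fell by 2.25 ± 0.30 (4.77-fold, adjusted p = 0.00534), the largest change of all called genes. CHAC1, which degrades glutathione, stood at 9.36 and 8.65 at 1 h and at 6.98 and 6.66 at 6 h. It fell by 2.18 ± 0.28 (adjusted p = 0.00534). DDIT3, encoding the stress factor CHOP, was among the tightest measurements, at 10.41 and 10.21 against 8.84 and 8.65. It fell by 1.56 ± 0.16 with an adjusted p of 0.0021, the lowest of the comparison and shared with YPEL3. TRIB3, a pseudokinase that CHOP and ATF4 induce and that binds AKT, measured 11.67 and 11.06 at 1 h and 10.02 and 9.75 at 6 h (difference -1.48 ± 0.26, adjusted p = 0.00968).

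DDIT4, an inhibitor of mTORC1 also known as REDD1, was at 9.30 and 8.91 at 1 h and at 7.83 and 7.57 at 6 h, and fell by 1.40 ± 0.23 (adjusted p = 0.00933). CTH, the cystathionine gamma-lyase that makes cysteine, was at 9.28 and 8.52 and then at 7.62 and 7.13, and fell by 1.53 ± 0.27 (adjusted p = 0.0104). A second and dimmer CTH probe differed by -0.18 and did not pass. The other called members were named after their values were seen. ATF4 itself was at 9.93 and 10.09 at 1 h and at 8.61 and 8.77 at 6 h, and fell by 1.32 ± 0.16 (adjusted p = 0.00425). NUPR1, a small stress-induced chromatin protein, fell by 1.27, PSPH, the last enzyme of serine synthesis, fell by 0.92 and CEBPG, a dimer partner of ATF4, fell by 0.73. Enzymes and transporters of the same list were lower without passing, such as ASNS at -0.67 (adjusted p = 0.178), PSAT1 at -0.69 (0.116) and PHGDH at -0.59 (0.0665), though all 3 passed with the replicate block. SLC7A11, the cystine transporter, was at 0.39 and did not pass.

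ATF5 went the other way. This relative of ATF4, itself an ATF4 target in the stress response, was at 7.11 and 7.22 on the 1 h arrays and at 8.60 and 8.88 on the 6 h arrays. Its rise of 1.58 ± 0.18 (adjusted p = 0.0037) was the most precise among the 15 largest rises. The 6 h means of SESN2, CHAC1 and DDIT3 lay below the untreated ones, while that of ATF5 (8.74) lay above its untreated mean of 6.99. SESN2 averaged 8.39 in untreated cells, 9.32 at 1 h, 7.07 at 6 h and 8.74 at 24 h, and CHAC1 averaged 8.36, 9.0, 6.82 and 8.34 in that order. DDIT3 averaged 9.45 untreated, 10.31 at 1 h, 8.75 at 6 h and 9.82 at 24 h. The list median relative to untreated was 0.12 at 1 h, -0.46 at 6 h and 0.10 at 24 h.

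Neighbouring stress lists moved less. Of 25 measured genes of the endoplasmic reticulum stress list, 2 were lower and 0 higher (median -0.05), with the same counts in the blocked test without HGF 1 h replicate 1. HERPUD1, which helps to clear misfolded proteins from the endoplasmic reticulum, was at 9.65 and 9.01 at 1 h and at 7.91 and 7.93 at 6 h. It fell by 1.41 ± 0.21 (adjusted p = 0.00689). XBP1, a transcription factor of the unfolded protein response, fell by 0.84 ± 0.20 (adjusted p = 0.032), whereas HSPA5, the main chaperone of the compartment, was at 7.73 and 7.40 against 7.73 and 7.62 and differed by 0.11. Of 32 aminoacyl-tRNA synthetase genes, which charge tRNAs with amino acids and of which many are ATF4 targets, 3 were lower and 0 higher (median -0.09). AARS1 fell by 0.94 ± 0.24 (adjusted p = 0.044), CARS1 by 0.72 ± 0.17 (0.0289) and SARS1 by 0.63 ± 0.17 (0.0497). In the blocked test without HGF 1 h replicate 1, 2 of the synthetase genes were lower and 0 higher, and CARS1 and SARS1 did not pass. WARS1 differed by -0.87 ± 0.32 (adjusted p = 0.137, and 0.00238 with the replicate block).

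The promoters of CHAC1 and HERPUD1 are printed because each holds the short core of the element that ATF4 and its partners recognise, TGATGNAA on either strand, shown in capitals. The sequences are the 250 bases before the annotated start, from RefSeq (GRCh38.p14), at chr15:40953221-40953470 on the + strand and at chr16:56931892-56932141 on the + strand.
CHAC1: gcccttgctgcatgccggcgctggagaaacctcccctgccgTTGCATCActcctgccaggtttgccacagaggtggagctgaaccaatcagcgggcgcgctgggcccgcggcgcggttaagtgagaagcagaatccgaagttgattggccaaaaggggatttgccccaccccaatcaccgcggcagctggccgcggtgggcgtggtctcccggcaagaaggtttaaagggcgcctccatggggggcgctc
HERPUD1: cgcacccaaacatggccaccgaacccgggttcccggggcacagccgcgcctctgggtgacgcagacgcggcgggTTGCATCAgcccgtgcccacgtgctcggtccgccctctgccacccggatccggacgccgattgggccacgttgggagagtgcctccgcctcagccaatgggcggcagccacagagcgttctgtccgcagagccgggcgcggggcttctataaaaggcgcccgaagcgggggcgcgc
The match begins 209 bases before the start in CHAC1 and 176 bases before it in HERPUD1. Of 27305 promoters of this length, 3.26% hold the motif, as do 1.62% of the 8719 matched for tested genes, and of the called genes of the ATF4 list 1 of the 9 with a sequence does. It was held by 3.02% of the promoters matched for genes called lower and by 2.08% of those called higher. A match describes letters in this window only.

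Genes of growth arrest and of the FOXO and p53 programs were lower at 6 h in 8 of 39 measured cases, with 0 higher. FOXO factors are shut out of the nucleus when AKT is active, and their targets include brakes on growth and inducers of protein breakdown. The list was split, since the median difference was only -0.08. In the blocked test without HGF 1 h replicate 1, 9 were lower and 0 higher. YPEL3, a growth-suppressive member of the yippee family, was at 9.69 and 9.47 at 1 h and at 7.90 and 7.80 at 6 h. Both 6 h arrays lay far below both 1 h arrays, and the gene fell by 1.73 ± 0.18 (adjusted p = 0.0021). MXD4, which competes with MYC for its partner MAX, was at 9.39 and 9.30 and then at 8.16 and 7.97, and fell by 1.28 ± 0.19 (adjusted p = 0.00689). FBXO32, the ubiquitin ligase atrogin-1, fell by 1.25 ± 0.23 (adjusted p = 0.0124) from 9.36 and 9.20 to 8.07 and 7.98, while its second probe differed by -0.40 and did not pass. TSC22D3, the glucocorticoid-induced leucine zipper, was at 8.38 and 7.43 against 6.82 and 6.28, and the 1 h arrays lay far apart from each other (difference -1.35 ± 0.30, adjusted p = 0.0267).

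The remaining members of that list that passed, named after their values were seen, were YPEL5 (-1.21), KLHL24 (-1.06), XPC (-0.72) and CDKN2D (-0.70). TXNIP differed by -0.32 and CDKN1A, the p21 inhibitor, by 0.42, and neither passed. Here too the 6 h level was the lowest of the time course. YPEL3 averaged 9.18 in untreated cells, 9.58 at 1 h, 7.85 at 6 h and 9.65 at 24 h. MXD4 averaged 9.14, 9.34, 8.06 and 9.71 in the same order.

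Immediate early transcription factors, the first genes to answer a growth factor, were lower at 6 h in 3 of 24 measured cases and higher in 0 (median -0.14). MAFF, a small MAF protein, was at 10.10 and 9.53 at 1 h and at 8.41 and 8.40 at 6 h (difference -1.41 ± 0.22, adjusted p = 0.00689), while a probe of MAFF close to background differed by -0.18. JUND, the member of the JUN family linked to slower growth, was at 12.77 and 12.40 against 11.53 and 11.48, and fell by 1.08 ± 0.18 (adjusted p = 0.00914). FOSL2 fell by 0.86 ± 0.19 (adjusted p = 0.0258), a call lost in the blocked test without HGF 1 h replicate 1 (adjusted p = 0.0685), which called 2 of the list lower and 0 higher. MAFF averaged 9.48 in untreated cells, 9.82 at 1 h and 8.41 at 6 h, JUND 12.42, 12.59 and 11.50, and FOSL2 7.36, 7.79 and 6.92. None of the 3 passed against untreated at 1 h in the fit with all arrays. For MAFF and JUND the 6 h mean was the one farther from untreated, and it lay below it. EGR1, the classical ERK-driven gene, was at 8.92 and 8.23 at 1 h and at 8.99 and 7.91 at 6 h, so that the duplicates differed more than the time points (difference -0.12 ± 0.46). The others fixed for this comparison did not pass. FOS was at 8.16 and 8.20 against 8.92 and 8.54 (0.55 ± 0.20, adjusted p = 0.143), and FOSB differed by -0.55, JUN by -0.27, JUNB by 0.15, IER2 by 0.10 and ATF3 by 0.06. FOS and FOSB passed with the replicate block (adjusted p = 0.0234 and 0.0256). MYC was at 11.37 and 11.16 at 1 h and at 10.75 and 10.71 at 6 h, a difference of -0.53 ± 0.18 that did not pass (adjusted p = 0.118, and 0.0298 with the replicate block). IER3 differed by -0.55 ± 0.22 (adjusted p = 0.172).

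Outputs of the ERK pathway and its feedback regulators were higher in 4 of 28 measured cases and lower in 1 (median 0.24). CCND1, cyclin D1, which carries cells through G1, was at 7.53 and 7.30 at 1 h and at 9.10 and 8.96 at 6 h. It rose by 1.62 ± 0.29 (adjusted p = 0.0112), and its mean of 7.74 in untreated cells and of 7.29 at 24 h lay with the 1 h level. DUSP4, a nuclear ERK phosphatase, rose by 0.77 ± 0.19 (adjusted p = 0.042), and its second probe was at 0.56 without passing (adjusted p = 0.129). HMGA2, a chromatin protein, was higher by 0.82 ± 0.20 (adjusted p = 0.0374), with detection on 1 of the 2 arrays at 1 h. ETV5, an ETS factor, fell by 0.82 ± 0.18 (adjusted p = 0.0258) from 11.71 and 11.27 to 10.78 and 10.56. The phosphatases DUSP6 (0.58 ± 0.25) and DUSP1 (-0.21 ± 0.20) did not pass, and DUSP6 passed with the replicate block (adjusted p = 0.0168). In the blocked test without HGF 1 h replicate 1, 2 genes were higher and 1 lower, and DUSP4 and HMGA2 did not pass.

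The NF-kB list held the largest rise and a large fall together, with 1 of 24 measured genes higher, 2 lower and a median of -0.10. CXCL8, the chemokine interleukin-8, was at 6.75 and 6.94 at 1 h and at 8.85 and 8.76 at 6 h. It was higher by 1.96 ± 0.26 (3.90-fold, adjusted p = 0.00534), the largest rise of all called genes under this processing, with means of 7.19 in untreated cells and of 6.59 at 24 h. NFKB2, the p100 precursor of the non-canonical pathway, was at 8.42 and 7.88 and then at 6.87 and 6.96, and fell by 1.23 ± 0.19 (adjusted p = 0.00689). RELB, the partner of its product, fell by 0.66 ± 0.17 (adjusted p = 0.0466) but lost the call in the blocked test without HGF 1 h replicate 1 (adjusted p = 0.193), which called 1 of the list higher and 1 lower. NFKBIA, the inhibitor that NF-kB itself induces, averaged 9.92 at 1 h and 10.02 at 6 h and differed by 0.10 ± 0.17. The CXCL8 promoter is printed with its match to the NF-kB motif GGNNTTTCC in capitals, 91 bases before the start, at chr4:73740319-73740568 on the + strand.
CXCL8: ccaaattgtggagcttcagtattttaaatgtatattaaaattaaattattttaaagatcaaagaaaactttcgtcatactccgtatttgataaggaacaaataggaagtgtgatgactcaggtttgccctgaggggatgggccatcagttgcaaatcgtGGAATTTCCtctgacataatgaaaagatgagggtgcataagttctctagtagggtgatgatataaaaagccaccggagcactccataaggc
That motif was found on either strand in 5.43% of all promoters of this length, in 5.88% of those matched for tested genes, in 5.42% of those matched for genes called higher and in 4.91% of those for genes called lower.

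Clock genes were lower in 4 of 16 measured cases and higher in 0, with a median of -0.26. The circadian clock runs through the activators CLOCK and BMAL1, which bind the E-box CACGTG, and through the PER and CRY repressors. CIART, a repressor of CLOCK and BMAL1, was at 7.98 and 7.71 at 1 h and at 6.48 and 6.69 at 6 h, where 1 of the 2 arrays detected it. It fell by 1.26 ± 0.18 (adjusted p = 0.00613). DBP, a direct output of the clock, was at 9.21 and 8.80 against 7.72 and 7.79 (difference -1.25 ± 0.32, adjusted p = 0.0454). CRY2 fell by 0.97 ± 0.21 (adjusted p = 0.0246), and PER1, not detected at 6 h, was at least 1.58-fold lower (adjusted p = 0.0481). CLOCK was at 0.71 ± 0.22 without passing (adjusted p = 0.0837, and 0.0107 with the replicate block). In the blocked test without HGF 1 h replicate 1, CIART alone of the list passed. CIART averaged 7.43 in untreated cells and 7.76 at 24 h, and DBP 8.70 and 9.43. The CIART promoter, at chr1:150282304-150282553 on the + strand, is printed because it carries 3 E-boxes, in capitals, the nearest 57 bases before the start.
CIART: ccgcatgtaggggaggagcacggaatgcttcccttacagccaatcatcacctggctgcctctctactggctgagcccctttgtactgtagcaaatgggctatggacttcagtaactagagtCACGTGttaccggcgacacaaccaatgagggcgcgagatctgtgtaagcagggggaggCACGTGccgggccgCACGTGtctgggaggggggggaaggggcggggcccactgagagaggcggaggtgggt
An E-box was found in 6.33% of all promoters of this length, in 8.73% of those matched for tested genes and in 2 of the 4 of the called clock genes. It was held by 9.06% of those matched for genes called lower and by 6.67% of those for genes called higher.

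**Figure D2:**
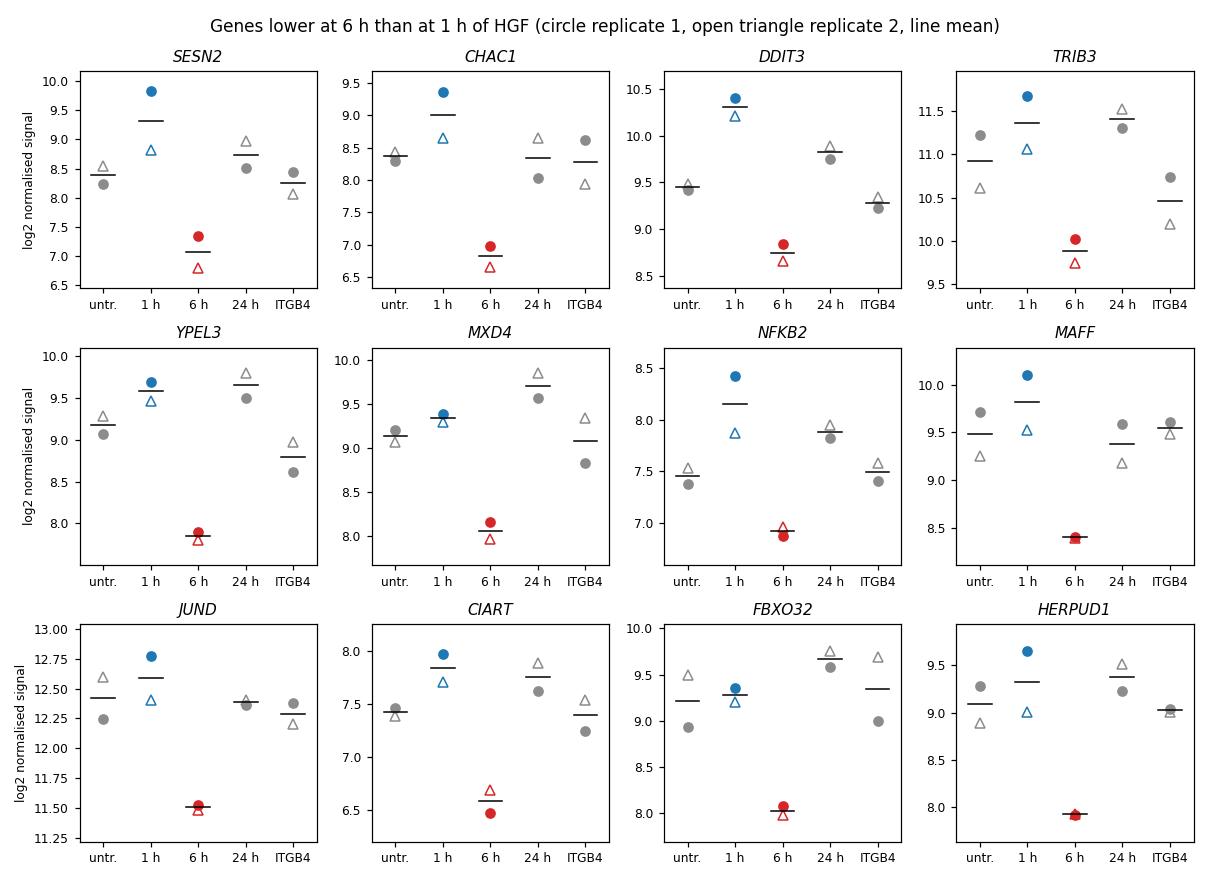
Log2 normalised signal of 12 genes lower at 6 h than at 1 h of HGF, for each of the 10 arrays by group (untr., untreated; 1 h, 6 h and 24 h of HGF; ITGB4, transduced cells), with filled circles for replicate 1, open triangles for replicate 2 and a line at the mean of each group. The red 6 h points lie below both blue 1 h points in each panel, as for SESN2 (7.33 and 6.80 against 9.83 and 8.82), and each vertical axis has its own range.

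Rises at 6 h included genes of the machinery that makes ribosomes and handles RNA. Ribosome assembly starts in the nucleolus, where large complexes cut and fold the precursor rRNA, and many of its genes are targets of MYC. The list of ribosome biogenesis and MYC genes had 13 of 49 measured members higher and 0 lower, and the median difference was 0.50 (0.40 within replicate 1, 0.63 within replicate 2, 0.53 without HGF 1 h replicate 1). The blocked test without that array gave 10 higher and 0 lower. WDR75, a subunit of the small-subunit processome, was at 7.27 and 7.73 at 1 h and at 9.31 and 8.95 at 6 h, a rise of 1.63 ± 0.25 (adjusted p = 0.00689). NCL, nucleolin, rose by 1.25 ± 0.21 (adjusted p = 0.00957) from 6.83 and 7.35 to 8.32 and 8.35. DDX21, a nucleolar helicase, was at 9.29 and 9.65 against 10.58 and 10.46 (1.05 ± 0.24, adjusted p = 0.0291), and BRIX1, needed for the large subunit, was at 10.40 and 10.61 against 11.54 and 11.43 (0.98 ± 0.22, adjusted p = 0.0275). Neither DDX21 nor BRIX1 passed in the blocked test without HGF 1 h replicate 1 (both at 0.058).

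Further members that passed were NOP56, of the snoRNP that methylates rRNA, at 0.96, UTP14A at 0.96, LYAR at 0.89, PES1 at 0.87, DKC1, the pseudouridine synthase dyskerin, at 0.85, NOC3L at 0.84, NOP16 at 0.80, NIP7 at 0.73 and RRS1 at 0.71. NOP56 was steady between duplicates, at 8.82 and 8.72 at 1 h and at 9.74 and 9.74 at 6 h. All of them were chosen for mention with their values known, and NOC3L, NOP16 and RRS1 did not pass in the blocked test without HGF 1 h replicate 1. The list stood 0.13 above untreated at 1 h, 0.61 above at 6 h and at -0.17 at 24 h in the median. Of 70 genes for the structural proteins of the ribosome, limma called 0 (8 at an unadjusted p under 0.05, and 0 higher and 2 lower with the replicate block), at a median of -0.07. Of 74 mitochondrial ribosomal protein genes 3 were higher and 0 lower (median 0.02). They were MRPL1 (1.04 ± 0.22, adjusted p = 0.0216), MRPL42 (0.81 ± 0.21, 0.0451) and MRPL50 (0.81 ± 0.20, 0.0393), and MRPL42 and MRPL50 did not pass in the blocked test without HGF 1 h replicate 1, which called 2 of the list higher and 0 lower.

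Of 39 measured splicing factor genes, 9 were higher, 0 lower and 30 did not pass. The list holds the SR proteins, which mark exons, and the hnRNPs, which coat the pre-mRNA. It had a median of 0.53 (0.66 within replicate 1, 0.36 within replicate 2, 0.40 without HGF 1 h replicate 1), and the replicate block called 18 higher and 2 lower. SFPQ, a paraspeckle protein, was at 8.38 and 8.17 at 1 h and at 10.11 and 9.79 at 6 h, a rise of 1.68 ± 0.29 (adjusted p = 0.01). SRSF2 was at 10.23 and 10.68 against 11.78 and 11.98 (1.42 ± 0.20, adjusted p = 0.00613) and SRSF3 at 8.17 and 8.14 against 9.51 and 9.47 (1.34 ± 0.20, adjusted p = 0.00689). In both genes the duplicates lay far closer to each other than the time points did. HNRNPH1 was higher by 0.99 ± 0.20 (adjusted p = 0.018), a gene with close relatives that share sequence, so that its probe may read more than 1 of them. The other members that passed, SRSF1 (0.98), HNRNPU (0.92), RBM14 (0.88), SRSF6 (0.81) and SRSF10 (0.81), were named after their values were seen. In the blocked test without HGF 1 h replicate 1, 6 were higher and 0 lower, and HNRNPH1, SRSF6 and SRSF10 did not pass. The list median lay at -0.28 relative to untreated at 1 h, at 0.22 at 6 h and at -0.25 at 24 h. Of the largest rises outside the list, DDX5, an RNA helicase, was at 8.58 and 9.38 against 10.36 and 10.56 (1.48 ± 0.31, adjusted p = 0.0221), and RBM25, a splicing regulator, rose by 1.42 ± 0.27 (adjusted p = 0.0138). The untreated mean of RBM25 was 8.56, nearer to its 6 h mean of 8.95 than to its 1 h mean of 7.52. That of DDX5 was 9.49, nearer to its 1 h mean of 8.98 than to its 6 h mean of 10.46.

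Genes for translation initiation were higher in 4 of 45 measured cases and lower in 1, with a median of 0.08. EIF4E, the cap-binding protein, rose by 1.23 ± 0.20 (adjusted p = 0.0083) from 8.26 and 8.50 to 9.56 and 9.65. EIF3J rose by 1.30 ± 0.25 (adjusted p = 0.0153), EIF5 by 1.02 ± 0.24 (0.0326) and EIF4G2 by 0.91 ± 0.24 (0.0471), while a second EIF5 probe close to background was at 0.29 without passing. EIF2AK1, the heme-regulated eIF2 kinase, was the member called lower, at -0.70. Without HGF 1 h replicate 1, the blocked test called 2 higher and 0 lower, and EIF5, EIF4G2 and EIF2AK1 did not pass.

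Mitosis genes were higher in 7 of 49 measured cases and lower in 0, at a median of 0.41, but this result leaned on 1 array. The median was 0.52 within replicate 1 and 0.26 within replicate 2, fell to 0.19 without HGF 1 h replicate 1, and the blocked test without that array called 3 higher and 0 lower. HGF 1 h replicate 1 lay 0.48 below HGF 1 h replicate 2 in the median of the list, and HGF 6 h replicate 1 lay 0.27 below HGF 6 h replicate 2. CENPE, a kinetochore motor, was at 6.49 and 6.62 at 1 h and at 8.24 and 7.87 at 6 h. It rose by 1.50 ± 0.27 (adjusted p = 0.0107) and passed in the blocked test too. ASPM, a spindle pole protein, was at 7.59 and 8.81 and then at 9.74 and 9.53, so that the 1 h duplicates were more than 1 unit apart (1.43 ± 0.36, adjusted p = 0.0408, and 0.2 in the blocked test without HGF 1 h replicate 1). CENPF was at 7.68 and 8.60 against 9.47 and 9.44 (1.31 ± 0.28, adjusted p = 0.0221), and KIF11, the motor that separates spindle poles, was at 7.29 and 7.60 against 8.45 and 8.28 (0.92 ± 0.21, adjusted p = 0.0261). Neither passed in the blocked test without that array (0.065 and 0.081). The 6 h levels were not above untreated ones in the same way, since ASPM averaged 9.90 in untreated cells against 9.64 at 6 h, and CENPF 9.44 against 9.45. Of 42 genes of G1/S and DNA replication, limma called 0 (5 at an unadjusted p under 0.05, and 3 higher and 1 lower with the replicate block), at a median of -0.10.

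Metallothioneins formed the list with the largest share called. They are small cysteine-rich proteins that bind zinc and copper, and their genes lie in 1 cluster and are switched on by the zinc sensor MTF1. Of 7 measured genes of the list, 4 were higher and 0 lower, with a median of 0.76 and the same 4 and 0 in the blocked test without HGF 1 h replicate 1. MT2A was at 10.56 and 10.46 at 1 h and at 11.60 and 11.88 at 6 h, a rise of 1.23 ± 0.17 (2.35-fold, adjusted p = 0.00613). MT1X was at 8.18 and 7.99 against 9.07 and 9.09 (0.99 ± 0.18, adjusted p = 0.0128) and MT1H at 7.44 and 7.33 against 8.09 and 8.20 (0.76 ± 0.17, adjusted p = 0.0267). SLC30A1, the zinc exporter of the plasma membrane and no metallothionein, was at 6.48 and 6.33 against 7.45 and 7.33 (0.98 ± 0.16, adjusted p = 0.0083), with detection on 1 of the 2 arrays at 1 h. MT1G differed by 0.01 and MT1E by -0.30, and neither passed. The metallothionein transcripts are close to identical over long stretches, and which of them each probe reads is uncertain.

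MT2A averaged 10.39 in untreated cells, 10.51 at 1 h, 11.74 at 6 h and 10.46 at 24 h. MT1X averaged 7.69, 8.08, 9.08 and 7.81 in that order, so that the 6 h level stood above the other 3 time points in both. Their promoters are printed with each match to the core of the metal response element, TGCACNC or TGCGCNC on either strand, in capitals. The windows lie at chr16:56608334-56608583, chr16:56682220-56682469 and chr16:56669564-56669813, each on the + strand.
MT2A: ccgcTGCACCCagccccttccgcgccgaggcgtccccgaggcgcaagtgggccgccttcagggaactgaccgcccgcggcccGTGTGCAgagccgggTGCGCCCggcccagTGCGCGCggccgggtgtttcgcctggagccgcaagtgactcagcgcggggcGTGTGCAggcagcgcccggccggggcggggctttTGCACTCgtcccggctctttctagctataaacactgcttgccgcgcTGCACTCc
MT1X: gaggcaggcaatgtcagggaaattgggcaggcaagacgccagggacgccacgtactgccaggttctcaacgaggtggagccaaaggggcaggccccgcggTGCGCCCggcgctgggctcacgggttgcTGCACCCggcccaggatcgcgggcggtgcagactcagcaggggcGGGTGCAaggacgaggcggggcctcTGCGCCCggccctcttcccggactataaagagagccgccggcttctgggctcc
MT1H: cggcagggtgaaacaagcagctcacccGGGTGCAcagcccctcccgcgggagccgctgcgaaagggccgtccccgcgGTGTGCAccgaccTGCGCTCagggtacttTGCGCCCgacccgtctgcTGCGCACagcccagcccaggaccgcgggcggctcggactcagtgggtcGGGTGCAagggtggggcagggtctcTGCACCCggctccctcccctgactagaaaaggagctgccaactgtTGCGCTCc
MT2A holds 7 matches, MT1X 4 and MT1H 8, and the SLC30A1 promoter holds the motif as well, so that all 4 of the called genes of the list carry it. Such a short motif is common: 24.5% of all promoters of this length hold it, as do 32.0% of those matched for tested genes, 34.2% of those for genes called higher and 24.5% for genes called lower.

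**Figure D3:**
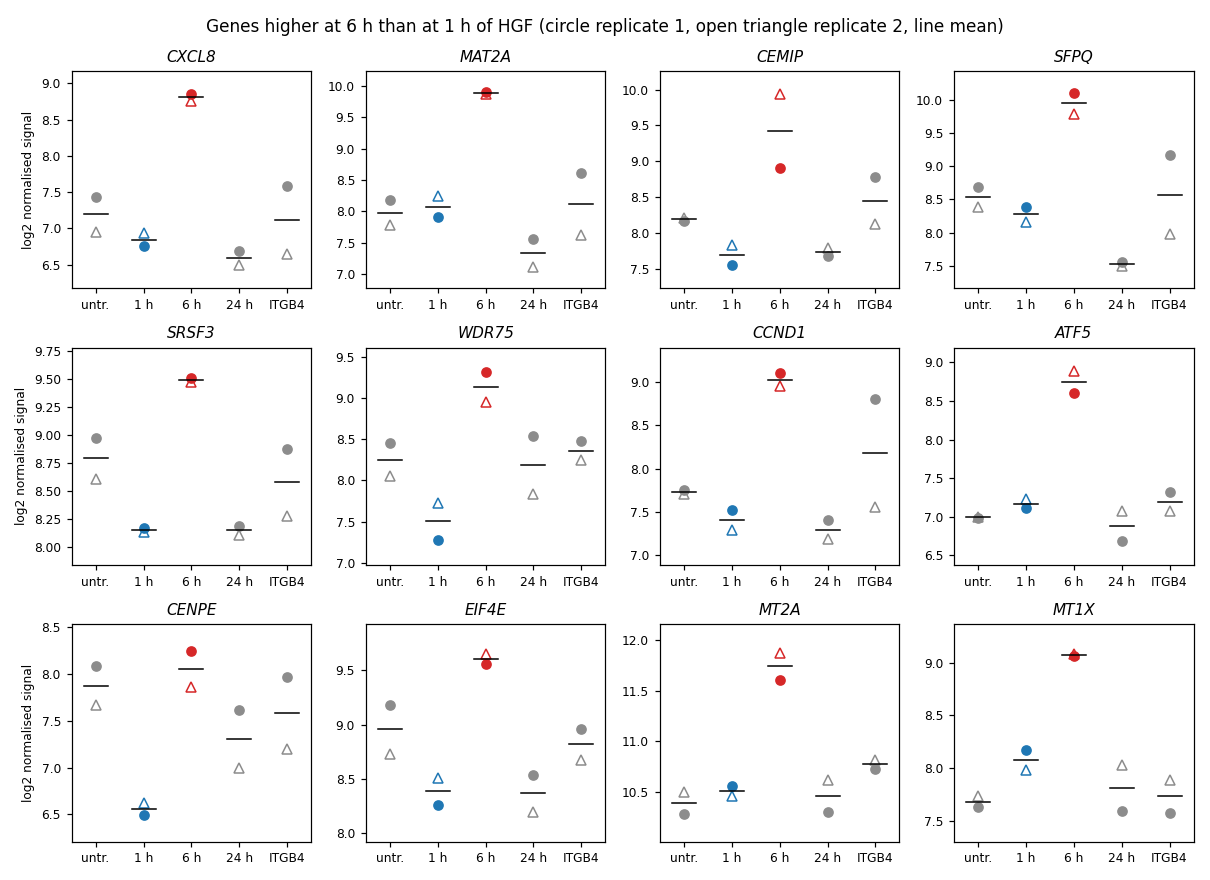
Log2 normalised signal of 12 genes higher at 6 h than at 1 h of HGF, for each of the 10 arrays by group (untr., untreated; 1 h, 6 h and 24 h of HGF; ITGB4, transduced cells), with filled circles for replicate 1, open triangles for replicate 2 and a line at the mean. Both 6 h points lie above both 1 h points in each panel, as for CXCL8 (8.85 and 8.76 against 6.75 and 6.94), and each vertical axis has its own range.

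Of 30 genes of purine, pyrimidine and methionine metabolism, 2 were higher and 0 lower (median -0.01), against 3 and 0 in the blocked test without HGF 1 h replicate 1, and 1 of them was the second largest rise. MAT2A, which makes S-adenosylmethionine, the methyl donor, was at 7.90 and 8.24 at 1 h and at 9.90 and 9.86 at 6 h, a rise of 1.81 ± 0.28 (adjusted p = 0.00689). Its mean was 7.98 in untreated cells and 7.34 at 24 h. CTPS1, which makes CTP, rose by 0.71 ± 0.17 (adjusted p = 0.0371). Of 25 cholesterol and fatty acid genes, 4 were higher (16%, against 2.61% of all genes) and 0 lower (median 0.06), namely HMGCS1 (0.95 ± 0.16, adjusted p = 0.00933), ELOVL6 (0.98 ± 0.20, 0.0193), CYP51A1 (0.74 ± 0.19, 0.0468) and SQLE (0.60 ± 0.16, 0.047). HMGCS1 and CYP51A1 also passed in the blocked test without HGF 1 h replicate 1, and ELOVL6 and SQLE did not. Oxidative phosphorylation genes gave 1 lower of 71 (NDUFS3, -0.66) and 0 higher, and hypoxia and glycolysis genes 1 lower of 31 (P4HA2, -0.69) and 0 higher. Neither NDUFS3 nor P4HA2 passed in the blocked test without HGF 1 h replicate 1, which called 0 of the oxidative phosphorylation genes and 1 higher and 0 lower of the hypoxia and glycolysis genes.

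CEMIP, which breaks down hyaluronan, was at 7.56 and 7.84 at 1 h and at 8.92 and 9.94 at 6 h (1.73 ± 0.28, adjusted p = 0.00901), with a gap of about 1 unit between the 6 h arrays. DCBLD2, a transmembrane receptor, was at 7.69 and 7.86 against 9.41 and 9.12 (1.49 ± 0.23, adjusted p = 0.00689), and ANXA1, annexin A1, at 8.26 and 9.05 against 9.95 and 10.14 (1.39 ± 0.25, adjusted p = 0.0115). BCL2A1, an anti-apoptotic BCL2 relative, rose by 1.31 ± 0.19 (adjusted p = 0.00613) from 7.57 and 7.97 to 9.0 and 9.16. TNFRSF12A, the TWEAK receptor, was at 9.34 and 9.24 against 10.35 and 10.40 (1.09 ± 0.19, adjusted p = 0.0107). RND3, an antagonist of RhoA signalling, rose by 1.21 ± 0.20 (adjusted p = 0.00921) and CAPN2, a protease of focal adhesions, by 0.90 ± 0.15 (adjusted p = 0.00968). CAPN2 was the single call among 31 motility, adhesion and matrix proteolysis genes (1 higher, 0 lower, median 0.10, and 2 higher and 0 lower in the blocked test without HGF 1 h replicate 1), and limma called 0 of 20 SRF and YAP targets (2 at an unadjusted p under 0.05, and 1 higher and 1 lower with the replicate block). FAM111B, a protease-like protein tied to DNA replication, rose by 1.37 ± 0.26 (adjusted p = 0.0137), and its second probe was at 0.37 without passing. ESRP1, an epithelial splicing regulator, was the single call among 11 epithelial genes, at 0.86 ± 0.16 (adjusted p = 0.0138).

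Among the remaining large falls, EPOR, the erythropoietin receptor, was at 8.74 and 8.26 at 1 h and at 7.01 and 7.13 at 6 h (difference -1.43 ± 0.20, adjusted p = 0.00613). DIRAS1, a small GTPase, was at 8.24 and 7.76 against 6.51 and 6.64 (difference -1.43 ± 0.22, adjusted p = 0.00689), with detection on 1 of the 2 arrays at 6 h. LMCD1, a LIM-domain transcriptional cofactor, fell by 1.42 ± 0.23 (adjusted p = 0.00797) and ZSWIM4, a zinc finger protein of the SWIM type, by 1.46 ± 0.19 (adjusted p = 0.00534). LDB2, a LIM-domain-binding cofactor, was at 8.11 and 7.58 at 1 h, was not detected at 6 h and was at least 2.52-fold lower (adjusted p = 0.00723). BAMBI, a decoy receptor of the TGF-beta family, was the single call among 19 TGF-beta, BMP and ID genes, at -0.75 ± 0.16 (adjusted p = 0.0222). MX1 (-0.75 ± 0.19, adjusted p = 0.0432) and IFITM3 (-0.66 ± 0.18, adjusted p = 0.0497) were the 2 lower of 24 interferon response genes, and neither passed in the blocked test without HGF 1 h replicate 1. Of 26 apoptosis regulators, CASP9 was the member called lower (-0.79 ± 0.17, adjusted p = 0.0253), beside BCL2A1 and TNFRSF12A, which were higher. CASP9 did not pass in the blocked test without HGF 1 h replicate 1 (adjusted p = 0.0786), where 2 of the list were higher and 0 lower. S100B was the single call among 22 melanocyte genes (-0.63 ± 0.16, adjusted p = 0.0393), a call lost in the blocked test without HGF 1 h replicate 1 (adjusted p = 0.128), which called 0 of the list. The list median of -0.24 shrank to -0.10 without that array. MITF was at 10.32 and 10.43 against 9.98 and 9.59 and did not pass (-0.59 ± 0.23, adjusted p = 0.164).

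Heat shock genes and chaperones were higher in 2 of 29 measured cases, CHORDC1 (1.00 ± 0.26, adjusted p = 0.047) and DNAJA1 (0.87 ± 0.20, adjusted p = 0.0309), and lower in 0, at a median of 0.23. Neither passed in the blocked test without HGF 1 h replicate 1. RND3 was the single call among 23 other immediate early genes (median 0.01), of which the blocked test without that array called 1 higher and 1 lower. The zinc finger genes, the largest list at 253 measured, gave 5 higher and 3 lower at a median of 0.01, shares of 1.98% and 1.19% that lie below the background. ZNF480, not detected at 1 h, was at least 1.97-fold higher, and ZNF226 was lower with both of its probes (-1.05 and -0.77). ZNF148 (0.94 ± 0.23, adjusted p = 0.0374) and ZNF195 (0.95 ± 0.25, adjusted p = 0.0481) were higher and lost the call in the blocked test without HGF 1 h replicate 1, which called 3 of the list higher and 4 lower.

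**Figure D4:**
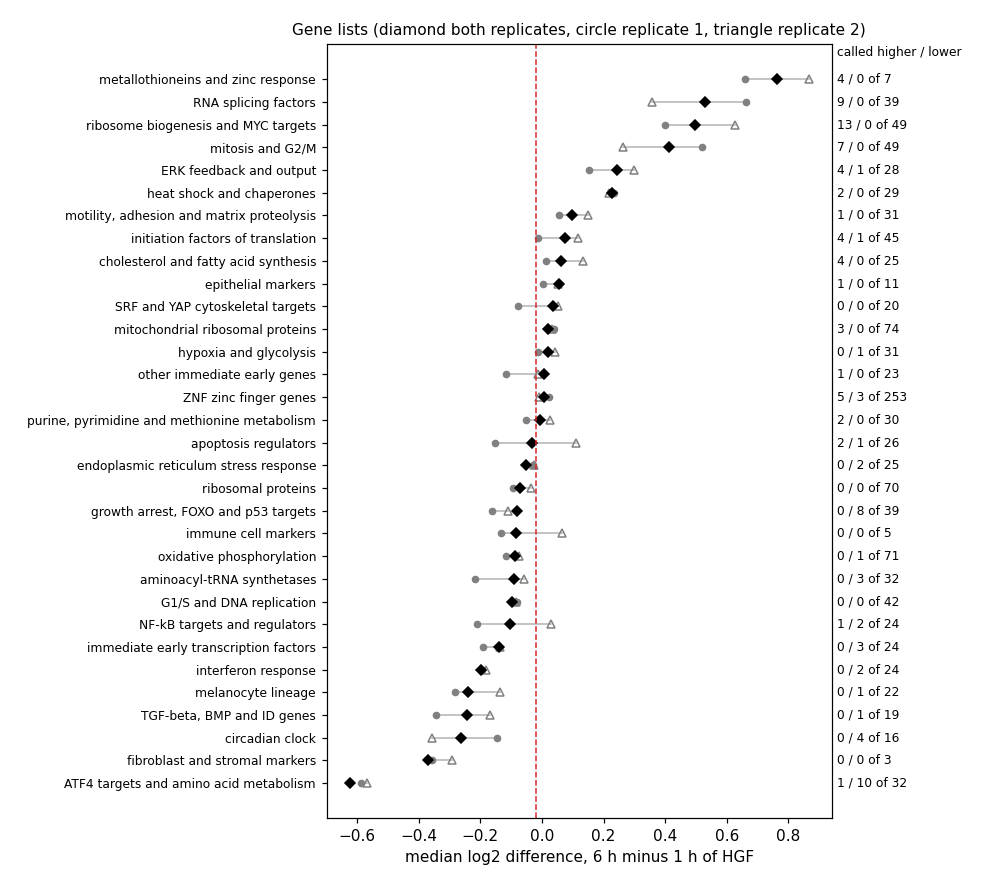
Median log2 difference between 6 h and 1 h of HGF for each of the 32 gene lists (diamonds), with the medians within replicate 1 (circles) and within replicate 2 (triangles), the median over all genes as a dashed line at -0.02, and the number of genes called higher and lower of those measured at the right. The ATF4 list lies lowest at -0.62 and the metallothionein list highest at 0.76, and the gap between replicates is widest in the splicing list (0.66 against 0.36).

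The levels in untreated cells and at 24 h place the 2 time points. These comparisons share the 1 h and 6 h arrays with the test above, and the probes were picked on those arrays, so that the values are a description. Among the 314 probes called higher, the untreated mean lay between the 1 h and 6 h means for 249, beyond the 1 h mean for 54 and beyond the 6 h mean for 11. It was nearer to the 1 h mean for 63.7% of them, and the 24 h mean was nearer to it for 88.2%. Of the named rises, CXCL8, MAT2A, CCND1, MT2A and MT1X had an untreated mean nearer to the 1 h mean. For RBM25, ANXA1, RND3, ELOVL6, ESRP1, MRPL1 and ZNF148 the untreated mean was nearer to the 6 h mean. The same held for CENPE, FAM111B, ASPM, CENPF, KIF11, HMGA2, DUSP4, MRPL42, CHORDC1, ZNF195 and ZNF480. CENPE averaged 7.88 in untreated cells, 6.55 at 1 h and 8.06 at 6 h, and FAM111B averaged 8.17, 7.33 and 8.69 in that order. Relative to untreated, the higher probes had a median of -0.35 at 1 h, of 0.54 at 6 h and of -0.30 at 24 h. Among the 340 probes called lower, the untreated mean lay between the 2 time points for 303, beyond the 1 h mean for 35 and beyond the 6 h mean for 2. For these lower probes the untreated mean was nearer to the 1 h mean for 77.9%, and the 24 h mean for 96.5%. Their median relative to untreated was 0.28 at 1 h, -0.56 at 6 h and 0.25 at 24 h. For most of the called probes the 6 h arrays were therefore the ones farther from untreated cells.

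**Figure D5:**
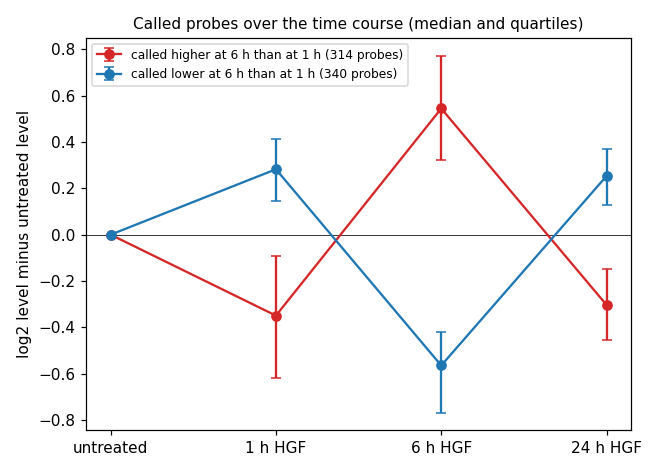
Median log2 level relative to untreated cells at 1, 6 and 24 h of HGF for the 314 probes called higher (red) and the 340 called lower (blue) at 6 h than at 1 h, with bars from the lower to the upper quartile over probes. The 6 h medians lie at 0.54 and -0.56, while those at 1 h and 24 h lie on the other side of 0 in both sets. The probes were picked for their gap between the 1 h and 6 h arrays, so that opposite sides at 1 h and 6 h are partly given by the choice.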

How the data were processed

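RNA was labelled with a TotalPrep kit and hybridised to Illumina Human-8 V1 BeadChips. Per the file headers, the authors deposited for each array a mean signal intensity per probe, a detection score (a score near 1 marks signal above the negative controls) and the mean bead number. BeadStudio 1.5.1.3 is named in the submitters' processing notes. A table of processed signal intensities was also deposited by the authors, and it was a straight line of the scanner values on 9 of 10 arrays but not for ITGB4 replicate 2 (Spearman 0.968). It served as an alternative only.

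Of 24136 probes, 22 control probes and 9 with a missing value were left out. The signals were quantile normalised and log2 transformed without background correction, and the 14018 probes with a detection score of 0.99 or more on at least 1 array were kept (58.2%). A fit of 5 group means over the 10 arrays (limma 3.58.1, R 4.3.3) gave the contrast with Benjamini-Hochberg adjustment. All standard errors and adjusted p-values in the text are from this two-sided moderated test unless the blocked test is named. The fit was also run on simulated data with independent errors and planted differences. Such data cannot show how far the calls rest on 1 array. Array number limits the precision: with 2 arrays a group, the spread was pooled over the groups (5 residual degrees of freedom). The moderation added 8.16 prior degrees of freedom, drawn from the spread of all probes, which is more than the arrays themselves gave. An "at least" fold sets the mean of the brighter group against the detection limit of each array of the group not detected.

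Probes were named through platform annotation, updated by RefSeq (18716 of 18758 symbols matched). A gene with several probes was counted in lists by its brightest one. The rule for names took the 15 largest rises and falls, up to 4 called members of each of 32 lists and a fixed set of genes; any other list member in the text was named after its value was seen. One gene that the rule selects is not reported here. Members and lists were chosen with earlier results of these data known. Motifs were searched in RefSeq promoters on both strands, and 8719 of 10599 tested genes had one.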

Additional observations from a re-analysis of the deposited data

How the results depend on the processing

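The number of called probes depended strongly on how the spread was estimated. Against 654, the replicate block gave 1871 (with all 654 among them), the 4 HGF 1 h and HGF 6 h arrays alone with the replicate block 2552, a floor at a signal of 179 gave 78, and an ordinary pooled-variance test without moderation gave 0 (2546 at an unadjusted p under 0.05). Leaving out 1 array at a time gave between 0 and 1037 calls: the 1 h arrays gave 0 (replicate 1 left out) and 650 (replicate 2 left out), the 6 h arrays 23 and 77 in that order, and either 24 h array 1037. With the replicate block, leaving out an HGF 1 h or HGF 6 h array, chosen after seeing the data, gave between 223 and 3495 (396 and 3495 for the 1 h arrays, 404 and 223 for the 6 h arrays, replicate 1 first). The share of higher calls was 48% with all arrays, 62.7% of 601 in the authors' value table, where the median of all probes was 0.132, and 71.8% of 78 with the floor. The other alternatives stayed within 1.5 times the count, and the cause of each move was not tested. The 654 probes kept their direction under each alternative, except that the stricter detection filter held 653 of them and the floor left 634 with that sign. Much of this was fixed in advance. The groups did not overlap for any called probe, so that leaving out 1 array in the unblocked fit could not turn the sign. Settings that change only the spread leave the difference as it was.

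The replicate numbers were not taken to pair the arrays. Deviations from the group means correlated at 0.366 between the HGF 1 h and HGF 6 h arrays, but between groups the values ran from -0.0631 to 0.661. Values with the replicate block are for that reason given beside those of the unblocked fit and not in their place. Named genes that were called kept their direction under all alternatives where they had a difference, which was largely fixed in advance. None of them passed in the unblocked fit without HGF 1 h replicate 1, which leaves 1 array at 1 h. Probes close to a normalised signal of 89.6, such as MET and SLC30A1, have differences that background limits. Sizes also moved for called genes that were dim at 1 h. CXCL8 rose by 1.96 in the main fit, by 3.29 in the authors' value table and by 1.32 with the floor. CENPE rose by 1.50, 3.14 and 0.57 in that order. Fold sizes and size ranks of such genes therefore depend on the processing. With 2 arrays a group, a difference that did not pass is not shown to be absent.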
